A study of Rattus norvegicus with 4 samples.

Results

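Atp1b1, Atp1b2 and Fxyd1, genes of the sodium-potassium pump, were followed across 4 one-colour arrays of rat skeletal muscle. They are 3 of the 26624 genes or unnamed accessions on the arrays, and each was found by matching a probe's RefSeq accession to the gene symbol. The 3 genes were selected on their measured log2 levels across these same 4 arrays, with results already known, so their values and differences are a description and carry no test. Each gene had 1 probe (A_44_P435604 for Atp1b1, A_43_P10996 for Atp1b2 and A_42_P572123 for Fxyd1), and each probe was well above background on 4 of 4 arrays by the scanner software's flag. None was saturated.

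The rats were males of 15 weeks. SPORTS is the Spontaneously-Running-Tokushima-Shikoku rat, a hyperactive mutant on a Wistar background, and wild-type (WT) Wistar rats were the controls. There were 2 arrays of WT muscle, 1 of muscle from an exercised SPORTS rat and 1 from a sedentary SPORTS rat. The series' design text calls the WT rats sedentary, while the source names of the WT samples give no exercise state. Neither which muscle was taken nor what the exercise was is stated. Nothing says that the WT samples are from separate rats, so the p-values rest on a spread between arrays that may be purely technical.

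The pump is an ATPase of the cell membrane that moves sodium out of the cell and potassium in. In working muscle it restores the ion gradients that each action potential runs down. An alpha subunit (Atp1a genes) does the transport, a beta subunit (Atp1b genes) carries it to the membrane and tunes its affinity for potassium, and a small FXYD protein can join them and adjust the affinity for sodium. In rat muscle the beta1 subunit, encoded by Atp1b1, is known mainly from oxidative fibres and the beta2 subunit, encoded by Atp1b2, from fast glycolytic fibres. Fxyd1 encodes phospholemman, the FXYD protein of heart and skeletal muscle, which protein kinases A and C phosphorylate.

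The 250 bases before the annotated start of Atp1b2 and Fxyd1 are shown because these 2 of the 3 members have a promoter in the RefSeq table of build GRCr8, and those of Fxyd6 because it was the pump gene with the largest called fall. The Atp1b2 stretch lies at chr10:54823709-54823958 on the minus strand, the Fxyd1 stretch at chr1:95418581-95418830 on the minus strand and the Fxyd6 stretch at chr8:54575575-54575824 on the plus strand, each read 5′ to 3′. Capitals mark matches on either strand to the E-box letters CANNTG, the GC box GGGCGG and the TATA letters TATAAA, and no marked match overlapped another.
Atp1b2: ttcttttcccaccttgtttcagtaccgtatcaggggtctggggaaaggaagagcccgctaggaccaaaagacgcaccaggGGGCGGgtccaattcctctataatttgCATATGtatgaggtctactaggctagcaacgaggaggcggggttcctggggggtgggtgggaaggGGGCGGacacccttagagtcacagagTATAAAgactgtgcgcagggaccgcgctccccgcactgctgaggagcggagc
Fxyd1: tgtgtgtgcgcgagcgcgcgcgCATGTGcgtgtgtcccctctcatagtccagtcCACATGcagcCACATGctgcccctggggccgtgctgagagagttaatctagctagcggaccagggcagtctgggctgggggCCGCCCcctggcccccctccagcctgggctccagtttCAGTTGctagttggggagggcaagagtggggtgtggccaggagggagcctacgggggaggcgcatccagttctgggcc
Fxyd6: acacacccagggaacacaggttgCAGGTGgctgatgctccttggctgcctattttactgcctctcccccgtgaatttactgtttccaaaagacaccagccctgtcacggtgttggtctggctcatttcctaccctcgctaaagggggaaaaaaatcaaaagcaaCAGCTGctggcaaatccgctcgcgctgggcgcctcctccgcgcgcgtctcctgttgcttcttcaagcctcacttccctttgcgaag

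The Atp1b2 stretch held 1 E-box match, 2 GC box matches and 1 TATAAA, whose nearest base lay 47 bases before the start. Fxyd1 held 4 E-box matches and 1 GC box match, and Fxyd6 held 2 E-box matches. Of 33469 RefSeq promoters cut to the same 250 bases, 65.5% held an E-box match, 30.5% a GC box match and 12.9% TATAAA. Other motifs were searched but not marked. Atp1b2 held 1 match to the CCAAT box, which 34.0% of the promoters held, and Fxyd1 and Fxyd6 held none. None of the stretches matched the M-CAT letters CATTCC, the MEF2 pattern or the CArG box. These matches describe the letters and were not tested as binding sites.

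Every value below is the log2 processed signal of a probe less the 75th percentile of its array, so 0 is the level below which 75% of the probes lie. A difference of 1 is 2-fold. Brightness also depends on the probe, so levels are set only against the same probe on another array.

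Atp1b2 stood out on the exercised SPORTS array alone. Its log2 level was 1.07 on WT array 1, 1.01 on WT array 2, 1.03 on the sedentary SPORTS array and 6.64 on the exercised SPORTS array. The WT and sedentary arrays lay close together and the exercised array lay far above them. It was 48.6-fold above the WT mean (log2 difference 5.6; WT SD 0.037, n = 2) and 49.1-fold above the sedentary SPORTS array (5.62). Among 13324 genes tested, its difference from the sedentary array ranked 10 from the top and its difference from WT ranked 8. Of all genes tested, 8.62% were at least 2-fold above the WT mean on the exercised array. The sedentary SPORTS array differed from the WT mean by -0.01 for Atp1b2.

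Atp1b1 went the other way on the exercised array. Its log2 level was 5.25 and 5.28 in the WT pair, 4.97 on the sedentary SPORTS array and 4.17 on the exercised SPORTS array. Both SPORTS arrays lay below both WT arrays, with the exercised one lowest. The exercised array was 2.13-fold below the WT mean (log2 difference -1.09; WT SD 0.022, n = 2) and 1.74-fold below the sedentary SPORTS array (-0.80). The sedentary array was 1.22-fold below the WT mean (-0.29). Of all genes tested, 11.9% were at least 2-fold below the WT mean on the exercised array. On the sedentary array 2.72% were at least 2-fold above and 2.89% at least 2-fold below WT, and no member was among them.

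Fxyd1 stayed close to the same level on all arrays. Its log2 level was 5.48 and 5.49 in the WT pair, 5.66 on the sedentary SPORTS array and 5.63 on the exercised SPORTS array. Both SPORTS arrays lay above both WT arrays, by 0.18 for the sedentary and 0.14 for the exercised array (WT SD 0.0092, n = 2). The direction on the exercised array depends on the scaling, since quantile normalization gave -0.06 against WT. Its difference between the SPORTS arrays, -0.04, became 0.16 with scaling by the median of each array.

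**Figure D1:**
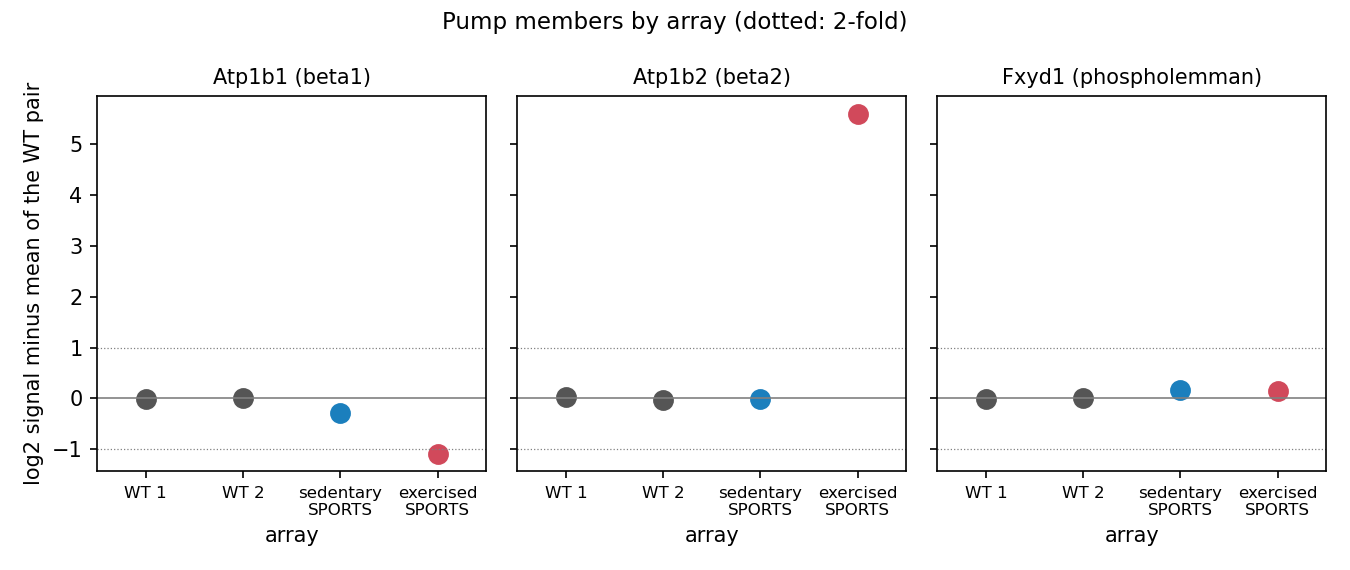
Atp1b1, Atp1b2 and Fxyd1 on the 4 arrays. The vertical axis is the log2 signal less the mean of the WT pair, each point is 1 array, and dotted lines mark 2-fold. Atp1b2 sits at 5.6 on the exercised SPORTS array and near 0 on the others, while Atp1b1 is lowest on the exercised array at -1.09.

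The spread between the WT arrays was also described at each gene's brightness. Among genes within 0.5 of a member's WT level, 95% of the differences between the WT arrays were at most 0.17 for Atp1b1 (464 genes), 0.24 for Atp1b2 (1658 genes) and 0.15 for Fxyd1 (446 genes). The exercised-array differences of Atp1b2 and Atp1b1 and the sedentary-array difference of Atp1b1 lay beyond that range. The sedentary-array difference of Atp1b2 lay inside it, that of Fxyd1 just outside, and the exercised-array difference of Fxyd1 inside. This range holds the spread of the WT pair only and does not cover the spread between SPORTS rats, for which there is 1 array per condition.

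The balance of the beta subunits can be read within an array, where scaling between arrays cancels. The log2 ratio of Atp1b2 to Atp1b1 signal was 6.42 higher on the exercised than on the sedentary SPORTS array, an 85.5-fold change, and 0.27 higher on the sedentary SPORTS array than in WT. Between the WT arrays it differed by -0.08. The log2 ratio of Atp1b2 to Fxyd1 was 5.66 higher on the exercised than on the sedentary array, and that of Atp1b1 to Fxyd1 was 0.76 lower (log2 -0.76). A ratio shows unequal change, and in bulk muscle fewer cells of a type and less RNA per cell cannot be told apart.

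The other pump genes were described as a list of 12, of which 11 had a matched probe and 8 were tested, meaning well above background on at least 2 arrays. Like the members, this list and those below were chosen with earlier results of these data known. Their calls and p-values are therefore a description and not an independent test. Fxyd4 had no matched probe, 2 genes were not well above background on any array, and Fxyd3 was well above it on the sedentary SPORTS array alone. Linear models (limma) fitted over all 13324 genes gave Benjamini-Hochberg adjusted p-values, with calls below 0.05 and the spread taken from the WT pair. On the exercised array against WT, 1 of the 8 rose and 3 fell, where 27.3% of all genes tested were called higher and 26% lower, 53.2% in all. Without the filter on dim probes fewer pump genes were called on that array, and with a filter of 4 of 4 arrays more were. The share of all genes called moved the same way, so such counts depend on the filter. The list's median difference on the exercised array was -0.71 against 0.00 for all genes. On the sedentary array against WT none of the 8 rose and 1 fell, where 2.82% and 3.43% of all genes were called, 6.25% in all, with a list median of 0.175 against -0.01. Without the filter limma called 0 of all genes on the sedentary array, with 2915 higher and 2594 lower at an unadjusted p under 0.05.

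The other beta genes did not pass on either array under the processing used here. On the exercised array the outcome for each changed with some of the alternatives. Atp1b3, the beta3 subunit, has 10 spots of its probe on each array, and their mean log2 level was 1.79 on the WT arrays, 1.79 on the sedentary and 1.99 on the exercised SPORTS array. The SD between those spots was at most 0.067 on any array. Atp1b4 encodes a beta-family protein of muscle that in placental mammals sits in the nuclear envelope and no longer serves the pump. Its level was -1.53 and -1.11 in the WT pair, -0.39 on the sedentary and -2.12 on the exercised SPORTS array. The SPORTS arrays thus lay on opposite sides of the WT pair.

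Fxyd6 and Fxyd7, FXYD genes best known from nervous tissue, fell on the exercised array. Fxyd6, whose promoter stretch is printed above, was at 2.13 and 2.17 on the WT arrays, 2.01 on the sedentary and -0.31 on the exercised SPORTS array. The sedentary array lay just below the WT pair and the exercised array far below it, with a log2 difference from WT of -2.47 ± 0.07 (adjusted p = 0.00425, limma). Its second probe was not well above background on the exercised array, and its signal on the WT arrays was at least 2.68-fold higher than there. Fxyd7 was at -1.08 and -0.48 in WT, -1.09 on the sedentary and -2.48 on the exercised array (difference from WT -1.70 ± 0.32, adjusted p = 0.0338, limma). In the RefSeq order of GRCr8, Fxyd7 neighbours Fxyd1 and Fxyd6 neighbours Fxyd2.

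Fxyd2, the gamma subunit known from kidney, and Fxyd5, dysadherin, did not pass under the processing used here. On the exercised array that outcome changed with some of the alternatives. Fxyd2 was at 0.26 and -0.45 on the WT arrays, 0.40 on the sedentary and -1.52 on the exercised SPORTS array, and its second probe showed the same order. Fxyd5 was at 1.28 and 0.97 in WT, 1.48 on the sedentary and 0.54 on the exercised array. In both genes the sedentary array was highest and the exercised array lowest.

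**Figure D2:**
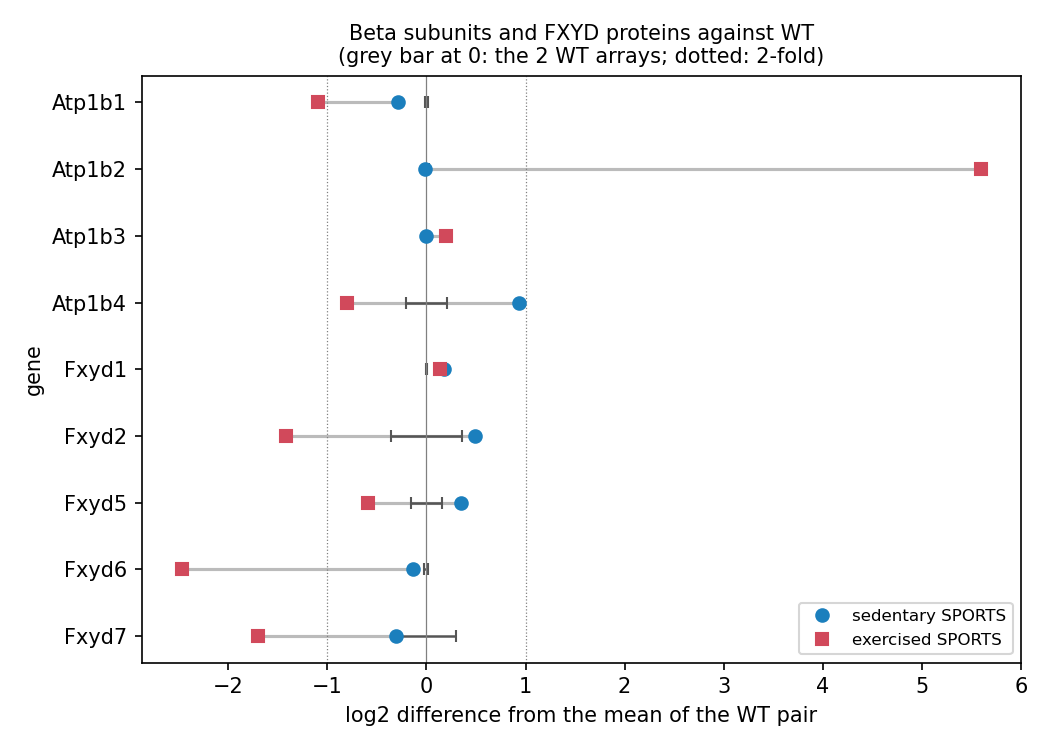
Beta subunit and FXYD genes against WT. The horizontal axis is the log2 difference from the mean of the WT pair, circles are the sedentary and squares the exercised SPORTS array, grey bars at 0 span the WT arrays and dotted lines mark 2-fold. Atp1b2 is the only square beyond 2-fold on the right, and Fxyd6 reaches -2.47 on the left.

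Between the SPORTS arrays there is no test, since each condition has 1 array. None of the 8 other pump genes was at least 2-fold higher on the exercised array and 5 were at least 2-fold lower, where 9.11% and 12.8% of all genes tested were. Scaling by the median of each array made these counts 1 and 4. Among those 5 were Fxyd6 (-2.33), Fxyd2 (-1.91), Atp1b4 (-1.74) and Fxyd7 (-1.39). The list's median was -1.25 against 0.03 for all genes. Atp1b3 was 0.20 higher on the exercised array.

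With both SPORTS arrays set against both WT arrays, 0 of the 8 pump genes passed, as did 0 of all 13324 genes (limma, 0% called in each direction). The spread in this fit includes the gap between the exercised and sedentary arrays, so genes that differ between them are hard to call. For Fxyd6 the standard error was 0.9 here and 0.07 for the exercised array against WT. The absence of calls therefore does not show that SPORTS and WT muscle are alike. At an unadjusted p under 0.05, 452 of all genes were higher and 529 lower in SPORTS, and none of the 8 was among them. The members' own SPORTS means lay 2.79 above WT for Atp1b2, 0.69 below for Atp1b1 (log2 -0.69) and 0.16 above for Fxyd1, and the Atp1b2 mean comes from the exercised array.

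Genes of muscle excitation and ion transport were followed as a list of 16, of which 11 were tested. On the exercised array against WT 6 rose and 3 fell, where 27.3% and 26% of all genes tested did, and the list's median was 0.375. The inward rectifier gene Kcnj12 rose by 2.66 ± 0.06 (adjusted p = 0.00425, limma), the chloride channel gene Clcn1 by 1.5 ± 0.06 (0.00468) and the muscle sodium channel gene Scn4a by 1.04 ± 0.12 (0.0148). Kcnma1, the calcium-activated potassium channel, differed by -2.66 ± 0.09 (0.00443). Kcna5, a voltage-gated potassium channel, was not well above background on the exercised array and was at least 1.1-fold lower there than in WT (adjusted p = 0.00495 for the measured values, limma). On the sedentary array none rose and 2 fell, Clcn1 (-0.67 ± 0.06, adjusted p = 0.0465, limma) and the sodium-potassium-chloride cotransporter Slc12a2 (-1.16 ± 0.07, 0.0384). On the sedentary array 2.82% of all genes tested were called higher and 3.43% lower, and 0 were called without the filter on dim probes. Between the SPORTS arrays Kcnj12 (2.51), Clcn1 (2.18) and Scn4a (1.61) were the furthest above 0, and Kcnma1 (-2.50) the furthest below.

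Kinases, phosphatases and receptors that act on the pump or on phospholemman made a list of 12, of which 10 were tested. On the exercised array against WT 2 rose and 2 fell, with a median of 0.03, and with median scaling 4 rose. On that array 53.2% of all genes tested were called in either direction. With median scaling the calls over all genes shifted too, and 69% of them were higher against 51.2%. Ppp1r1a, an inhibitor of protein phosphatase 1, rose by 0.77 ± 0.06 (adjusted p = 0.00914, limma) and the kinase gene Sgk1 by 0.45 ± 0.07 (0.0262). Among those that fell, the mineralocorticoid receptor gene Nr3c2 differed by -0.64 ± 0.07 (0.013). None passed on the sedentary array, where 6.25% of all genes tested were called in either direction. Between the SPORTS arrays Nr3c1 (0.68), Insr (0.44) and Ppp1r1a (0.30) were highest, and Sik1 (-0.62) and Nr3c2 (-0.57) were among the lowest. Prkaca, a catalytic subunit of protein kinase A, differed by -0.25 between them.

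Fibre-type genes moved on the same array as Atp1b2. Of 12 fast fibre genes 11 were tested, and on the exercised array against WT 9 rose and 1 fell, where 27.3% and 26% of all genes tested did. Their summed signal, in percent of the WT mean, was 99.2 and 100.8 in WT, 255.1 in the exercised rat and 35.4 in the sedentary SPORTS rat. The fast myosin gene Myh4 was at 1.03 and 1.41 in WT, 8.63 on the exercised and -2.56 on the sedentary array. All 11 were at least 2-fold higher on the exercised than on the sedentary array, with a median of 3.82, where 9.11% of all genes tested were, and quantile normalization left 8 of them. The largest of these differences were those of Myh4 (11.19), Actn3 (7.65) and Pvalb (7.20) and the smallest those of Atp2a1 (1.01), Myl1 (1.03) and Casq1 (1.33).

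Slow fibre genes moved the other way. Of 12 genes 11 were tested, and on the exercised array against WT 10 fell and none rose, where 26% and 27.3% of all genes tested did. Their summed signal was 21.6% of the WT mean in the exercised rat and 95.2% in the sedentary SPORTS rat. Myl2, a slow myosin light chain, was at 7.91 and 7.83 in WT, 7.80 on the sedentary and 3.8 on the exercised array. Between the SPORTS arrays 10 of the 11 were at least 2-fold lower on the exercised one, where 12.8% of all genes tested were, with a median of -2.31. The lowest were Myl2 (-4.0), Myh7b (-3.45) and Tnni1 (-3.40), and the highest Tnnt1 (-0.96), Pln (-1.23) and Myl3 (-1.92).

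On the sedentary array against WT, none of the 11 fast fibre genes rose and 5 fell, where 2.82% and 3.43% of all genes tested did. Myh2 (-3.64 ± 0.08, adjusted p = 0.0321, limma) and Tnni2 (-3.31 ± 0.07, 0.0321) were among them. Of the slow fibre genes 2 rose, Pln (1.12) and Tpm3 (1.1), and none fell. Atp1b2 stayed at the WT level on that array (-0.01). The part of fibre makeup in the members' values was not tested.

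**Figure D3:**
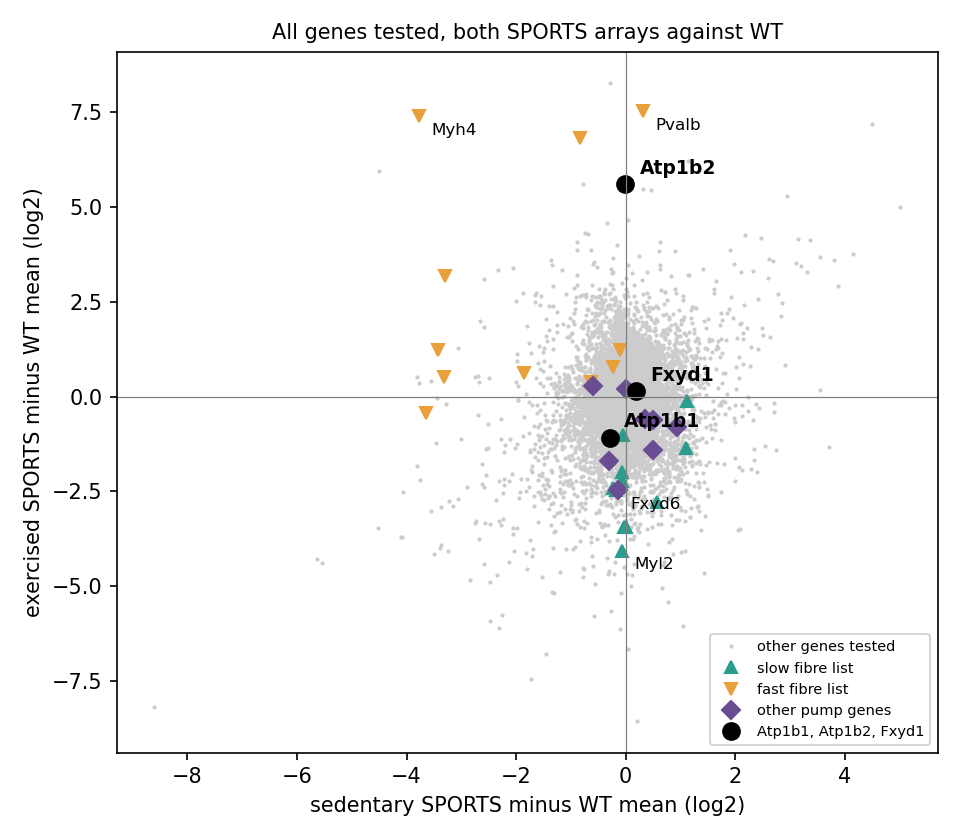
The 13324 genes tested, with the difference of the sedentary SPORTS array from the WT mean on the horizontal axis and of the exercised SPORTS array on the vertical axis, both in log2. Black circles are the members, diamonds the other pump genes, and triangles the fibre lists. Atp1b2 lies at 5.6 on the vertical axis and -0.01 on the horizontal one. Pvalb (7.52 and 0.32) lies above it, and Myh4 (7.4 and -3.78) lies above it and to the left.

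**Figure D4:**
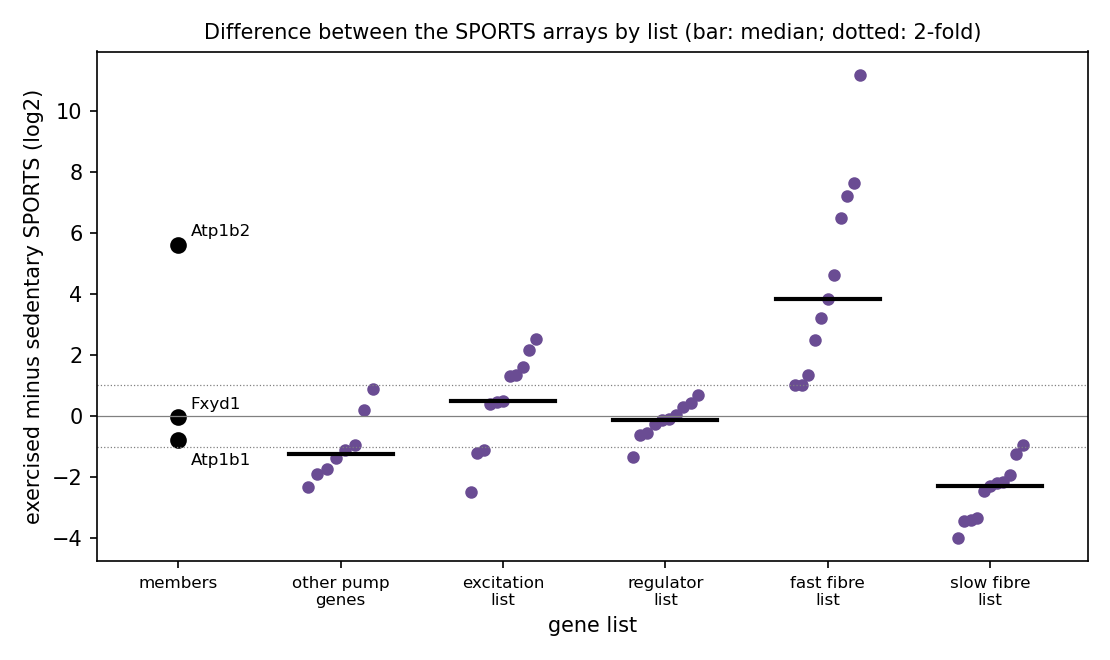
Difference between the SPORTS arrays, exercised minus sedentary, for the members and each list. Each point is 1 gene, the bar is the list's median and dotted lines mark 2-fold. The medians run from -2.31 for slow fibre to 3.82 for fast fibre genes, with -1.25 for the other pump genes.

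Markers of other cells also differed between the arrays. Over the 4 of 5 macrophage markers tested, the summed signal was 119.3% and 80.7% of the WT mean in the WT pair, 31.6% in the exercised rat and 204.4% in the sedentary SPORTS rat. Of those, Adgre1 and Csf1r were not well above background on the exercised array. The 5 fibroblast markers stood at 28.9% on the exercised and 78.7% on the sedentary array, and 3 of 5 adipocyte markers at 15.9% and 76.6%, with Lep not well above background on any array. The adipocyte sum was 85.3% and 114.7% in the WT pair. Such sums weigh the brightest probes most. On the sedentary array the median log2 difference from WT was 0.238 for the fibroblast markers, with Col1a1 at -1.41, and -0.392 for the adipocyte markers. For the Schwann cell and nerve list, 4 of 7 markers were tested and stood at 84.4% on the exercised and 206.5% on the sedentary array, with 2 of the list, Mal among them, not well above background anywhere. Skeletal muscle markers, 4 of 6 tested, stood at 118.1% and 84.1%. Of the 5 heart markers 3 were tested, and their summed signal stood at 33% on the exercised and 69.8% on the sedentary array. Myh6 was at 8.33 on each WT array and makes up most of that sum. On the exercised array Ryr2 differed from WT by 0.04, and Tnni3 was not well above background. Nppa and Myl7 were not well above background on any array. The part of these cells in the pump genes' values was not tested.

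Genes with a level pattern close to that of each member were found among 7529 genes with a symbol that were well above background on all 4 arrays, by the root mean square gap between the 4 values, each less its WT mean. For Atp1b2 the 5 nearest were Ltb (0.18), Fbp2 (0.29), Cd24 (0.39), Ankrd1 (0.54) and Pfkl (0.74), and 1 gene lay within 0.25. For Atp1b1 they were Lims1 (0.02), Abl1 (0.03), Gramd2b (0.03), Palm (0.04) and Slc17a5 (0.04), with 502 genes within 0.25. For Fxyd1 they were Rras, Lmbrd2, Ndufaf7, Mrpl12 and Zfp330, all within 0.02, with 3347 genes within 0.25. These counts follow from the size of each member's differences, since large differences have few genes near them and small ones many.

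The share of well-detected probes per array ran from 46% to 50.3%, and exercised SPORTS had the lowest share. Before scaling, exercised SPORTS was also the dimmest array. Its median signal of 137.5 compares with 206.9 for WT 1, 204.2 for WT 2 and 211.7 for sedentary SPORTS. Its 75th percentile of 864 compares with 1096, 1082 and 1111, in the same order. The part of this lower brightness in the falls of dimmer probes, such as those of Fxyd7, Fxyd2 and Atp1b4, was not tested. A gap of at least 2-fold separated the WT arrays for 1.13% of the genes tested and the SPORTS arrays for 21.9%. With scaling by the median of each array, the median of all genes on the exercised array moved by 0.23, and the share of calls against WT that were higher went from 51.2% to 69%. With so few arrays, their number limits the precision of all these values.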

How the data were processed

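Total RNA of rat skeletal muscle was measured on 4 one-colour Agilent arrays, all on 1 slide. Per the labels' protocols, 100 ng of RNA was amplified and labelled with Cy3. Agilent Feature Extraction 10.7.1.1 read the scans, per the submitters' processing notes. The deposited intensity used was the processed signal, background-subtracted within each array per the file headers. A table of log2 values deposited by the authors covers the same arrays. Its differences between arrays matched those used here (r = 1 over 30015 probes, offset at most 0.00321 log2), every probe had a median of 0 over the arrays, and its column medians were 0.02, -0.02, 0.17 and -0.15 for WT 1, WT 2, exercised and sedentary SPORTS. This settled its scale, centring and direction.

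Control spots and outlier-flagged spots were left out, spots of a probe were averaged, and each array was scaled by its 75th percentile over the 30015 probes. A percentile over all spots was computed first. The percentile over probes replaced it after results with both had been seen, because it matched the authors' table, and both are reported. A RefSeq table of assembly GRCr8 gave 59.4% of the probes 1 symbol. A gene was its brightest probe by mean, tested if well above background on at least 2 of 4 arrays. limma 3.58.1 in R 4.3.3 fitted 3 groups (1 residual degree of freedom, from the WT pair, so a lone SPORTS array is assumed to vary like that pair) and 2 arrays against 2 (2 degrees). p-values are two-sided. The fits were tested on simulated data.

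The members and lists were chosen with earlier results of these data known. Named were all probes of the members, all pump list genes, the 3 highest and lowest of each other list between the SPORTS arrays with those called against WT, and the 5 nearest patterns. Some genes of the lists count in the totals but are not reported here by name. Alternatives were median scaling, quantile normalization, normexp background correction (offset 50), the authors' table, the filter on dim probes, the mean over probes and leaving out each array. A probe dim throughout a group has only a bound, given as "at least": the brighter group's mean against the dim probe's signal, raised where needed to the lowest signal that was well above background on that array.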

Additional observations from a re-analysis of the deposited data

How the results depend on the processing

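Of the 98 values recomputed under an alternative, 60 stayed within the limit set for their kind and 38 did not. The limit was 1 SD of the WT pair for a difference, which is narrow, and 1.5 times for a count. None of the differences of at least 2-fold changed sign. For Atp1b2, exercised minus WT (5.6) became 5.83 with median scaling, 5.36 with quantile normalization, 5.55 with normexp and 5.56 with the 75th percentile over all spots, and exercised minus sedentary (5.62) became 5.81, 5.40, 5.55 and 5.57. For Atp1b1 in the same order, exercised minus WT (-1.09) became -0.87, -1.26, -1.14 and -1.14, and exercised minus sedentary (-0.80) became -0.61, -0.99, -0.88 and -0.85. Sedentary minus WT of Atp1b1 (-0.29) became -0.26 with median scaling and -0.26 with normexp. For Fxyd1, exercised minus WT (0.14) became 0.37, -0.06, 0.08 and 0.10, exercised minus sedentary (-0.04) became 0.16, -0.26, -0.16 and -0.09, and sedentary minus WT (0.18) became 0.21 with median scaling, 0.19 with quantile normalization and 0.24 with normexp. Leaving out either WT array kept every member's difference within 0.03 of its value.

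The call counts of the pump list are less steady, and the calls over all genes changed with the same settings. On the sedentary array against WT the count of 1 became 0 with median scaling, quantile normalization or no filter on dim probes, 3 with normexp and 2 when genes had to be well above background on all 4 arrays. On the exercised array the count of 4 became 7 with that stricter filter (6 lower) and 1 without a filter. SPORTS against WT gave 0 calls, and 0 to 4 when 1 array was left out: 1 without the exercised array and 4 without the sedentary one. Without 1 SPORTS array the fit compares the other SPORTS array alone with WT, so these counts repeat those of the single-array comparisons. The choice between the percentile over probes and over all spots was made after values had been seen. Over all spots, the exercised array had 0 pump genes higher and 3 lower, where the percentile over probes gave 1 and 3, fast fibre genes at least 2-fold higher between the SPORTS arrays went from 11 to 9, and calls over all genes went from 376 higher and 457 lower to 419 and 506 on the sedentary array and from 3634 and 3461 to 3301 and 3727 on the exercised one. Among all genes tested, calls on the sedentary array numbered 1033 higher and 1077 lower with normexp, 1095 and 1074 with the stricter filter and 0 without a filter. The share of calls that were higher on the exercised array ran from 47% to 69% over the settings. No paired analysis was possible because no label pairs the rats and each SPORTS condition has 1 array.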
